A study of Homo sapiens with 9 samples.

Results

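Integrin subunits are the alpha and beta chains of the receptors that hold a cell to its extracellular matrix. The 10 subunits described here, ITGA1, ITGA2, ITGA3, ITGA5, ITGA6, ITGAV, ITGB1, ITGB4, ITGB5 and ITGB8, were taken by gene name from a table of 37351 genes, with no cutoff on a measured value. They were chosen with earlier results of these data known. The samples were LNCaP, a cell line from a metastatic human prostate carcinoma, treated with recombinant NRG1, a growth factor that binds the ERBB3 and ERBB4 receptors. Total RNA was taken at 0, 12 and 24 h, with 3 biological replicates at each time, and mRNA was sequenced. All 3 groups carried the NRG1-treated label, the recombinant NRG1 was given at 15 ng/mL, and cells had been held without serum and calcium for 6 to 12 h beforehand. Time-matched libraries without NRG1 were not analysed here, so NRG1 and time in the medium cannot be told apart. The cells are 1 established line grown in plastic wells. In these bulk samples, fewer cells with a transcript and less of it per cell cannot be told apart either.

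An integrin is a pair of 1 alpha and 1 beta chain that crosses the membrane, binds matrix outside and links to actin inside through talin and kindlin. The alpha chain largely sets the ligand: ITGA1 and ITGA2 bind collagen, ITGA3 and ITGA6 bind laminin, ITGA5 binds fibronectin, and ITGAV binds ligands such as vitronectin and latent TGF-beta. ITGB1 pairs with all of these alpha chains, whereas ITGB5 and ITGB8 pair with ITGAV alone and ITGB4 with ITGA6 alone, the last as the core of the hemidesmosome that anchors basal epithelial cells. In the prostate, the ITGA6 and ITGB4 pair is known from the basal layer and is commonly lost in carcinoma, where ITGA6 is retained with ITGB1.

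The promoters of 4 members with higher counts at both later times are shown because these genes moved in the same direction. Each is the 250 bases before a RefSeq start of transcription on GRCh38.p14, written 5′ to 3′ on the strand of the gene. For ITGB5 3 starts were listed and for ITGA6 2. The start nearest that of the gene in the deposited table was taken, so the letters describe that start only. Capitals mark the motif CCGGAA, the core of ETS factor sites, which reads TTCCGG on the other strand, and the motif GGGCGG, a GC box, which reads CCGCCC there. The motif TGANTCA of the AP-1 factors, was also searched on both strands, and no marked matches overlap.
ITGB5, chr3:124901419-124901668, minus strand: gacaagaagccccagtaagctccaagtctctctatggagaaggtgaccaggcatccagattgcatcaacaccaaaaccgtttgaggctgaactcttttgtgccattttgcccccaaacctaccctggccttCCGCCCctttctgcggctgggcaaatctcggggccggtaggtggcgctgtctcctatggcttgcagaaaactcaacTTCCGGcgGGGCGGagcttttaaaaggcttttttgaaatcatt
ITGA2, chr5:52989102-52989351, plus strand: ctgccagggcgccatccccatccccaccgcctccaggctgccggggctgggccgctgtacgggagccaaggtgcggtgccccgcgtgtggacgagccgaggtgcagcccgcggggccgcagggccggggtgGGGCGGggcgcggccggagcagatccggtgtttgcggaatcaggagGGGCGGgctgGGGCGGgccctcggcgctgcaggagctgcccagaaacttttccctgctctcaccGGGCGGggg
ITGA6, chr2:172427086-172427335, plus strand: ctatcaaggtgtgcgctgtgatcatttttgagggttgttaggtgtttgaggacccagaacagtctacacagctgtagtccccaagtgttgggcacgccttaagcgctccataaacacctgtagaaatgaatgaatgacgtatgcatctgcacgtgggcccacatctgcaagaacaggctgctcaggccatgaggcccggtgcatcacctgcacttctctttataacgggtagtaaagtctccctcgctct
ITGA5, chr12:54419267-54419516, minus strand: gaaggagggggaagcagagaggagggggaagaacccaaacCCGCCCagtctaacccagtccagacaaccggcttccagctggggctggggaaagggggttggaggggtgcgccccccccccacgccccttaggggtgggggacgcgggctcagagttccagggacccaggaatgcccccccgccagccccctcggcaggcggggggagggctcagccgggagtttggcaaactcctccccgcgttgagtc

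No marked motif was present in all 4 promoters, and the GC box was absent only from ITGA6. ITGB5 held 1 ETS core and 2 GC boxes, ITGA2 held 4 GC boxes, ITGA5 held 1 GC box, and ITGA6 held none of these letters. Of the 8 members with a listed promoter, ITGA1, ITGA2, ITGA5, ITGA6, ITGAV, ITGB1, ITGB5 and ITGB8, 2 held CCGGAA, the other being ITGB1. Only 1 start was read per member. ITGAV and ITGB1 also had 2 listed, and the one read for ITGB1 lay 47562 bases from the gene start in the deposited table. CCGGAA was present in 14.5% of all 35116 listed promoters searched over the same length. GGGCGG was present in 5 of the 8 members and in 42.6% of all promoters, and TGANTCA was present in 0 of the 8 and in 6.57% of all promoters. These matches describe the letters only, and no binding was measured. The listed promoters did not include ITGA3 and ITGB4. On GRCh38 the deposited table places ITGB5 (ENSG00000082781.12) at chr3:124761948-124901418, ITGA2 (ENSG00000164171.11) at chr5:52989340-53094779 and ITGA6 (ENSG00000091409.16) at chr2:172427354-172506459. ITGA5 (ENSG00000161638.11) lies at chr12:54395261-54419266 and ITGA3 (ENSG00000005884.18) at chr17:50055968-50090481.

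Libraries held between 58267359 and 60985825 counts at 0 h, between 48760003 and 54083444 at 12 h, and between 47016302 and 54605125 at 24 h. The defining transcripts of luminal prostate cells were present in all libraries, with the 6 markers summing to 3883 to 4005 CPM (counts scaled to a common library size) at 0 h, 4008 to 4057 CPM at 12 h and 3731 to 3917 CPM at 24 h. Of 12 markers of other cell types, 11 were in the table and 5 had enough counts to be tested, and none of these passed the test at any time. They summed to 26.1 to 29.4, 24.1 to 25.9 and 24.9 to 25.5 CPM at 0, 12 and 24 h, nearly all of it from COL1A1, while the basal markers, which include KRT5 and TP63, summed to at most 0.325 CPM.

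The first question was which of the member chains LNCaP carries. At 0 h the transcripts of 1 beta chain, ITGB1, far outnumbered every other member, and 4 further chains, ITGAV, ITGA5, ITGB5 and ITGA6, formed a middle tier. ITGA3, ITGA2, ITGB4 and ITGA1 followed at lower levels, and ITGB8 was close to absent. Levels between genes are compared as CPM per kilobase of the canonical transcript, since longer transcripts collect more reads. This order and the sums and shares below cover the members only, and some other subunits stood among them. At 0 h ITGAE, at 7.86 CPM per kilobase, lay between ITGA6 (9.76) and ITGA3 (1.73). ITGB2 (0.851) was above ITGB4 (0.420), and ITGA7 (0.333) was above ITGA1 (0.238 CPM per kilobase).

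**Figure D1:**
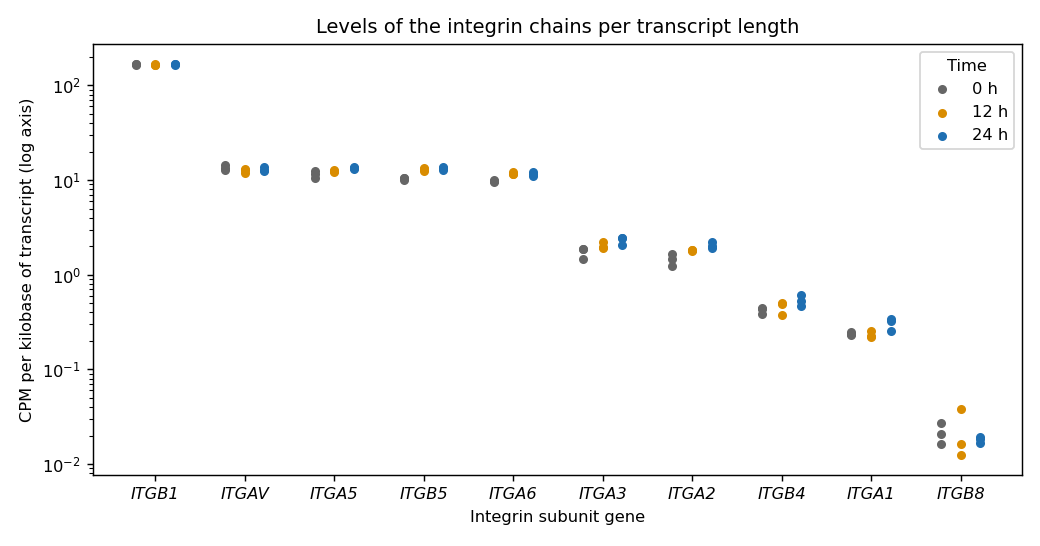
Level of each of the 10 integrin subunits in LNCaP at 0, 12 and 24 h, as CPM per kilobase of canonical transcript on a log axis, with 1 point per library. ITGB1 stands alone at the top at 166 CPM per kilobase at 0 h, and ITGB8 at the bottom at 0.0214.

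ITGB1 stood at 166 ± 3.34 CPM per kilobase at 0 h (SD, n = 3). Among the alpha members the order was ITGAV at 13.6 ± 0.837, ITGA5 at 11.5 ± 0.889, ITGA6 at 9.76 ± 0.199, ITGA3 at 1.73 ± 0.243, ITGA2 at 1.44 ± 0.205 and ITGA1 at 0.238 ± 0.00826 CPM per kilobase. The replicates of ITGA3 and ITGA2 overlapped, so their order was not resolved, and those of the other neighbours in this alpha order did not overlap. Among the beta members, ITGB5 followed ITGB1 at 10.2 ± 0.250, then ITGB4 at 0.420 ± 0.0352 and ITGB8 at 0.0214 ± 0.00538 CPM per kilobase. The replicates of ITGB5 overlapped those of ITGA6.

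The length chosen for a gene moved the middle of this order. With all annotated exon bases in place of the canonical transcript, ITGA6 (8.50) came before ITGB5 (6.97), ITGA5 (6.60) and ITGAV (4.95 CPM per kilobase), while ITGB1 stayed first at 42.7 and ITGB8 last at 0.0126. ITGA2 (1.43) then came before ITGA3 (0.863). ITGB8, a partner of ITGAV that activates latent TGF-beta, gave 9, 14 and 11 counts in the 0 h libraries, 6, 18 and 7 at 12 h, and 7, 9 and 9 at 24 h. Its libraries overlapped at all 3 times, and these counts limit what could be seen of a change.

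ITGB1 made up 94.0% of the summed level of the 4 beta members at 0 h, and ITGB5 5.78%. Of the summed level of the 6 alpha members at 0 h, ITGAV made up 35.5%, ITGA6 25.5%, ITGA3 4.52%, ITGA2 3.78% and ITGA1 0.624%, with ITGA5 between ITGAV and ITGA6. With all exon bases as the length, ITGB1 made up 85.3% and ITGB5 13.9% of the beta sum, and ITGA6, at 37.8% of the alpha sum, came before ITGA5 and ITGAV. Per kilobase, ITGB1 was 4.36 ± 0.159 times the sum of the 6 alpha members, and ITGA6 was 23.4 ± 2.51 times its hemidesmosome partner ITGB4 (SD, n = 3). With all exon bases ITGB1 was 1.90 ± 0.0675 times the alpha sum, so the size of this ratio depends on the length used. These are levels of transcript and say nothing of the pairs assembled at the membrane.

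The second question was which chains differed after 12 and 24 h in NRG1. Against 0 h, 4 of the 10 members rose at 12 h (ITGA2, ITGA5, ITGA6 and ITGB5) and 5 rose at 24 h, the same 4 and ITGA3, with none lower at either time. A gene passed with an adjusted p of at most 0.05 in the edgeR quasi-likelihood test over 19250 genes, a rule that 18.7% of all tested genes met at 12 h and 21.1% at 24 h. Of all tested genes, 10.6% were higher and 8.16% lower at 12 h, and 11.6% were higher and 9.48% lower at 24 h. Since the members were chosen with earlier results of these data known, setting their counts beside these shares is a description only. The rises were modest: none of the 10 members reached the additional 1.5-fold limit that the study applied, which 2.37% of tested genes met at 12 h and 3.31% at 24 h. The median log2 fold change of the 10 members was 0.12 at 12 h and 0.30 at 24 h, beside -0.0084 and -0.0068 over all tested genes. The replicates of the 2 groups did not overlap for 4 members at 12 h (32.8% of all tested genes) and for 7 at 24 h (33.5%), always with the later time higher.

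**Figure D2:**
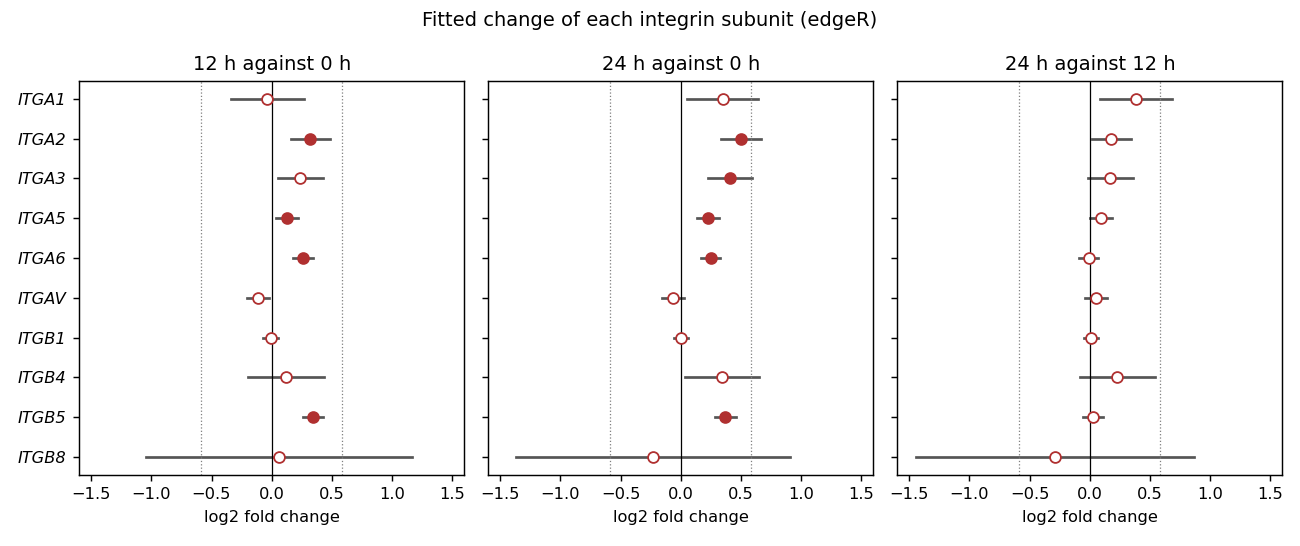
Log2 fold change of each of the 10 integrin subunits in 3 panels (both later times set against 0 h, then 24 h set against 12 h), with lines for the 95% confidence interval of the edgeR fit, filled points for an adjusted p of at most 0.05 and dotted lines at a 1.5-fold change. At 24 h the intervals of ITGA2, ITGA3, ITGA5, ITGA6 and ITGB5 lie above 0 and these genes passed the test, while that of ITGB1 is narrow and spans 0.

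ITGB5, the vitronectin-binding partner of ITGAV, showed the smallest adjusted p. It stood at 46.1, 46.1 and 44.2 CPM in the 0 h libraries, 55.7, 59.8 and 57.7 CPM at 12 h, and 56.3, 60.5 and 59.4 CPM at 24 h. All 6 later libraries were above all 0 h libraries, and the 2 later times overlapped. ITGB5 gave a log2 fold change of 0.35 (SE 0.042, edgeR adjusted p = 6.94e-08) at 12 h and 0.37 (SE 0.041, edgeR adjusted p = 9.94e-09) at 24 h.

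ITGAV, the alpha chain that ITGB5 requires, did not rise with it. Its libraries held 102, 90.6 and 94.2 CPM at 0 h, 90.0, 83.6 and 91.2 CPM at 12 h, and 88.9, 88.6 and 97.3 CPM at 24 h. The 3 groups overlapped. ITGAV gave a log2 fold change of -0.12 at 12 h (edgeR adjusted p = 0.0667) and -0.062 at 24 h (edgeR adjusted p = 0.368). The value at 12 h passed the threshold without 0 h replicate 2, at -0.15 (adjusted p = 0.0183), and without 24 h replicate 3 (adjusted p = 0.0400). The ratio of ITGB5 to ITGAV, both as CPM per kilobase, averaged (± SD, n = 3) 0.755 ± 0.0465 before treatment, 1.04 ± 0.0826 by 12 h and 1.02 ± 0.0588 by 24 h. The highest ratio at 0 h, 0.806, was below the lowest at 12 h, 0.981, and at 24 h, 0.967, and no test was run on the ratio. With all exon bases the ratio was 1.41, 1.95 and 1.91, again with every 0 h library below every later one.

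The laminin-binding chains ITGA6 and ITGA3 were both higher at 24 h. ITGA6 stood at 56.3, 55.9 and 58.1 CPM at 0 h, 67.0, 70.3 and 66.6 CPM at 12 h, and 64.4, 68.0 and 69.8 CPM at 24 h. No 0 h library reached the lowest of the later ones, and the later times overlapped. Its log2 fold change was 0.26 (SE 0.040, edgeR adjusted p = 5.75e-06) at 12 h and 0.25 (SE 0.040, edgeR adjusted p = 9.09e-06) at 24 h. ITGA3 stood at 9.20, 7.09 and 9.10 CPM at 0 h, 10.8, 9.42 and 9.69 CPM at 12 h, and 11.8, 11.8 and 10.1 CPM at 24 h. Replicate 2 was the lowest of the 0 h libraries, and both later groups lay above all 3. The log2 fold change of ITGA3 was 0.24 at 12 h (edgeR adjusted p = 0.0703) and 0.41 (SE 0.091, edgeR adjusted p = 0.00101) at 24 h. Without 0 h replicate 1 the 12 h value was 0.31 and passed, with an adjusted p of 0.0282, and it passed when all genes with a count were kept (adjusted p = 0.0393).

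**Figure D3:**
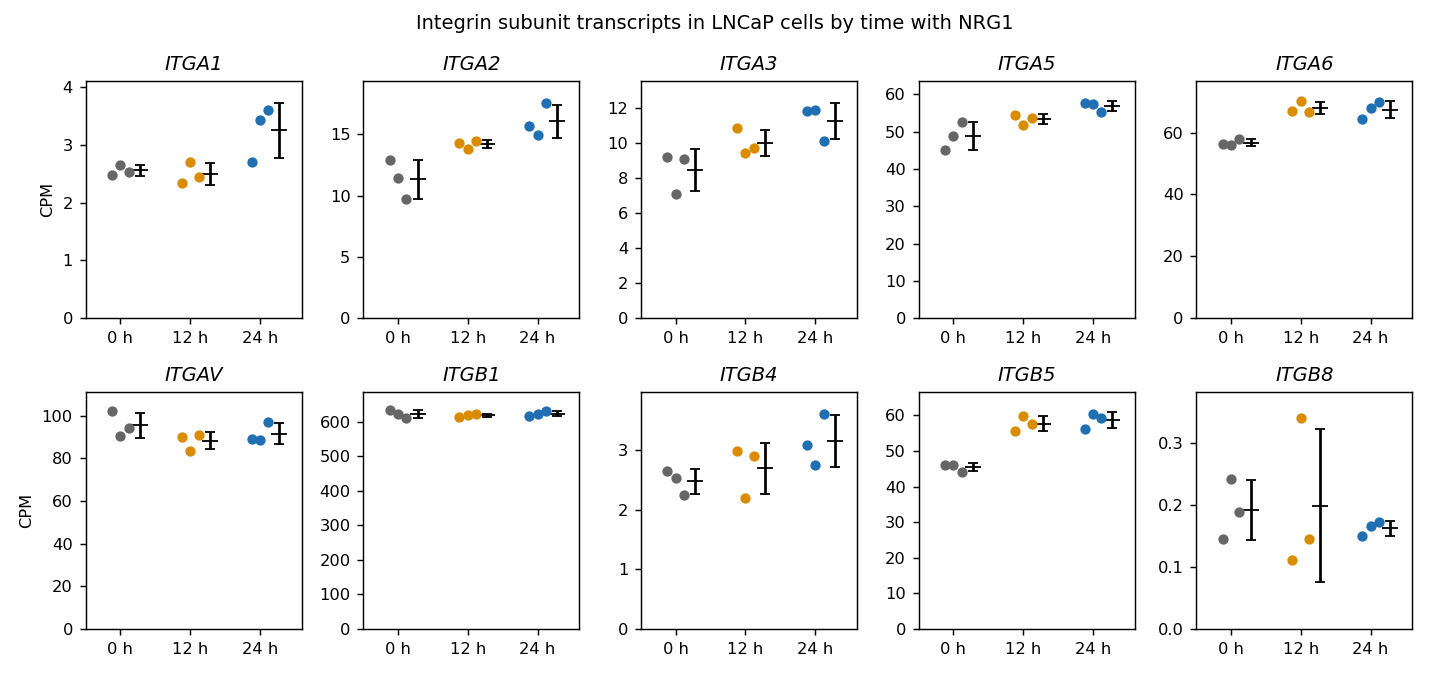
CPM of each of the 10 integrin subunits in each of the 9 libraries, 1 panel per gene with its own axis from 0, with points for libraries and a dash with an error bar for the mean ± SD of each time (n = 3). ITGB5 and ITGA6 step up by 12 h, ITGA2 and ITGA3 have their highest means at 24 h, and ITGB1 stays between 609 and 634 CPM.

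ITGA2, the collagen-binding chain, showed the largest rise among the members at 24 h. Its libraries held 12.9, 11.4 and 9.68 CPM at 0 h, 14.3, 13.8 and 14.4 CPM at 12 h, and 15.7, 14.9 and 17.5 CPM at 24 h. The 3 times did not overlap one another. For ITGA2 the log2 fold change was 0.32 (SE 0.081, edgeR adjusted p = 0.00402) at 12 h and 0.50 (SE 0.080, edgeR adjusted p = 1.34e-05) at 24 h, a 1.42-fold rise. The 12 h call rested in part on 0 h replicate 3, the lowest library, without which the value was 0.22 and the adjusted p 0.0562.

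ITGA1, the other collagen-binding chain, was much lower per kilobase and did not pass. It stood at 2.48, 2.66 and 2.54 CPM at 0 h, 2.33, 2.71 and 2.44 CPM at 12 h, and 2.71, 3.44 and 3.61 CPM at 24 h. The 24 h libraries were above the 0 h ones, while 12 h overlapped 0 h. For ITGA1 the log2 fold change was -0.037 at 12 h (edgeR adjusted p = 0.909) and 0.35 at 24 h (95% interval 0.055 to 0.64, edgeR adjusted p = 0.0856). Without 24 h replicate 1 the 24 h value was 0.46, with an adjusted p of 0.0295. PELO lies within ITGA1 on the same strand, shares 499 exonic bases with it and had 37720 counts over the 9 libraries against 1345 for ITGA1, so part of the ITGA1 value is uncertain.

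ITGA5, the fibronectin receptor chain, rose by a small amount. It stood at 44.9, 48.7 and 52.5 CPM at 0 h, 54.6, 51.8 and 53.5 CPM at 12 h, and 57.8, 57.4 and 55.4 CPM at 24 h. The 0 h and 12 h libraries overlapped, and the 24 h libraries were above all others. The log2 fold change was 0.13 (SE 0.045, edgeR adjusted p = 0.0400) at 12 h and 0.22 (SE 0.045, edgeR adjusted p = 0.000302) at 24 h. The 12 h call was close to the threshold and was lost in 6 of 16 alternative settings. Among them were DESeq2 (adjusted p = 0.0547) and leaving out 0 h replicate 1, where the value was 0.079 (adjusted p = 0.274). Replicate 2 of 0 h and replicates 1 and 3 of 12 h, each left out, ended it too.

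ITGB1, the common partner of these alpha chains, was nearly level. Its libraries held 634, 621 and 609 CPM at 0 h, 612, 619 and 622 CPM at 12 h, and 615, 622 and 629 CPM at 24 h. The 3 groups overlapped throughout. The log2 fold change was -0.0090 at 12 h (95% interval -0.070 to 0.052) and 0.0014 at 24 h (95% interval -0.059 to 0.062), with edgeR adjusted p-values of 0.886 and 0.984. A processed copy, ITGB1P1, is identical to ITGB1 over 609 bases, so reads from that stretch could not be assigned with certainty.

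ITGB4, the hemidesmosome chain, was low throughout. It stood at 2.65, 2.54 and 2.24 CPM at 0 h, 2.98, 2.20 and 2.89 CPM at 12 h, and 3.09, 2.74 and 3.61 CPM at 24 h. Every 24 h library was above every 0 h library, and the 12 h libraries spanned both. The log2 fold change was 0.12 at 12 h (edgeR adjusted p = 0.674) and 0.34 at 24 h (95% interval 0.035 to 0.65, edgeR adjusted p = 0.110). GALK1 overlaps ITGB4 on the genome without sharing exon bases. ITGB8 gave a log2 fold change of 0.059 at 12 h (95% interval -1.05 to 1.17) and -0.23 at 24 h (95% interval -1.37 to 0.91), so a 1.5-fold change in either direction was not detectable at this depth.

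The alpha members were also summed and set against ITGB1. The summed level of the 6 alpha members averaged (± SD, n = 3) 38.2 ± 1.00 CPM per kilobase before treatment, 40.8 ± 0.672 by 12 h and 42.6 ± 0.781 by 24 h. ITGB1 was 4.36 ± 0.159 times this sum before treatment, 4.05 ± 0.0868 times by 12 h and 3.91 ± 0.0297 times by 24 h. No 0 h library overlapped a later one in either quantity, with either length; with all exon bases ITGB1 was 1.90, 1.70 and 1.65 times the alpha sum. Among the alpha members ITGAV went from 35.5% of the sum to 30.7% and 30.5%, and ITGA6 from 25.5% to 28.6% and 27.2%. Among the beta members ITGB5 went from 5.78% to 7.27% and 7.33%. These sums and shares were not tested.

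Between 12 and 24 h, 0 of the 10 members passed the edgeR test, whereas 6.08% of all tested genes did. Of all tested genes, 3.03% were higher and 3.05% lower at 24 h, and 0.452% met the 1.5-fold limit as well. At an unadjusted p under 0.05 there were 3 members, ITGA1, ITGA2 and ITGA5, each higher at 24 h and each without overlap of the replicates (24.4% of all tested genes did not overlap), and DESeq2 gave 0 members as well. On the log2 scale the difference was 0.39 for ITGA1 (edgeR adjusted p = 0.122), 0.23 for ITGB4 (edgeR adjusted p = 0.460) and -0.29 for ITGB8 (edgeR adjusted p = 0.856). For ITGA6 and ITGB5, which were higher by 12 h, the log2 difference was -0.011 (95% interval -0.091 to 0.069) and 0.025 (95% interval -0.058 to 0.11).

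Of the 16 other integrin subunits in the table, 10 had enough counts to be tested. By edgeR 0 passed at 12 h (2 at an unadjusted p under 0.05), beside 18.7% of all tested genes. At 24 h 1 passed, beside 21.1% of all tested genes: the E-cadherin receptor chain ITGAE, which fell. ITGAE stood at 29.2, 30.5 and 30.1 CPM at 0 h, from 25.8 to 28.2 CPM at 12 h, and 29.2, 24.2 and 25.7 CPM at 24 h. Replicate 1 at 24 h overlapped the 0 h range and the other two lay below it. The log2 fold change at 24 h was -0.18 (SE 0.057, edgeR adjusted p = 0.0169), which was lost when 0 h replicate 2, 0 h replicate 3, 24 h replicate 2 (-0.12) or 24 h replicate 3 was left out. HASPIN lies in ITGAE on the opposite strand and shares 427 exonic bases with it, and the strand setting of the counting was not stated.

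The remaining subunits were low. The only others above 1 CPM on average were ITGA7, a laminin receptor chain of muscle, at 1.18, 1.59 and 1.35 CPM at 0 h, and ITGB2, the leukocyte beta chain, at 2.65, 2.66 and 1.87 CPM. Neither passed at either time. The ITGA7 locus overlaps BLOC1S1, a gene with 356% of its counts. ITGB3 and ITGB6, the further known partners of ITGAV, had 18 and 22 counts over all 9 libraries, and ITGA4, a fibronectin and VCAM1 receptor chain, had 2. ITGB3 is identical to another annotated gene over 2267 bases, ITGB6 to another over up to 516 bases, and ITGA4 to CERKL over 1575 bases. Reads from those stretches could not be assigned with certainty, so these low counts are uncertain.

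Of 29 listed genes that encode matrix ligands of these receptors, 22 were tested, and 3 rose and 5 fell at 12 h, while 2 rose and 3 fell at 24 h. The share that passed was 36.4% at 12 h, beside 18.7% of all tested genes, and 22.7% at 24 h, close to the 21.1% of all tested genes. With the 1.5-fold limit added, 3 passed at 12 h (TGFB1 and LAMB3 higher, COL4A2 lower) and 1 at 24 h (COL4A6 lower). Of all tested genes, 2.37% and 3.31% did. These ligand genes were low, averaging 0.320 CPM for TGFB1, 0.784 for LAMB3, 1.28 for COL4A2 and 1.82 for COL4A6 over the 9 libraries. HNRNPUL1 overlaps TGFB1 on the opposite strand over 215 exonic bases. It had 84837 counts over the 9 libraries against 152 for TGFB1, so the TGFB1 value is uncertain. The median log2 fold change of the tested ligands was -0.087 at 12 h and 0.052 at 24 h. LAMC1, the gamma chain of most laminins, averaged 213 ± 5.61 CPM before treatment and rose to 262 ± 9.74 CPM by 12 h and 278 ± 8.03 CPM by 24 h (SD, n = 3, log2 fold changes 0.30 and 0.38, edgeR adjusted p = 2.38e-08 and 4.44e-11). LAMA3, the alpha chain of epithelial laminin, fell from 35.5 ± 4.10 CPM to 24.6 ± 2.49 and 25.8 ± 1.02 CPM (log2 fold changes -0.53 and -0.46, edgeR adjusted p = 0.000195 and 0.000523). The 2 chains thus differed in direction at both times.

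LAMA5, another laminin alpha chain, went down and then up. Its means (± SD, n = 3) were 65.5 ± 5.68 CPM before treatment, 54.8 ± 3.60 CPM by 12 h and 74.8 ± 5.95 CPM by 24 h. It fell by 0.26 on the log2 scale at 12 h (edgeR adjusted p = 0.0367) and was 0.19 at 24 h (edgeR adjusted p = 0.105). The 12 h call was lost in 5 of 16 alternative settings, with an adjusted p of up to 0.121. Among them were those without replicate 2 of 0 h, replicate 1 or 2 of 12 h, or replicate 1 of 24 h. The 24 h value passed in 6 of 16 settings. Among them were those without 0 h replicate 1, at 0.27 (adjusted p = 0.000847), without 12 h replicate 2 and without 24 h replicate 2. ADRM1 overlaps LAMA5 over 244 exonic bases and had 127% of its counts. FN1, the ligand of the ITGA5 and ITGB1 pair, stood at 220, 190 and 193 CPM at 0 h, 239, 201 and 257 CPM at 12 h, and 255, 264 and 264 CPM at 24 h. The 24 h libraries were all above those at 0 h, with a log2 fold change of 0.37 (SE 0.099, edgeR adjusted p = 0.0417). This call was lost in 8 of 16 alternative settings, with the value between 0.34 and 0.45 throughout. Among them were those without 0 h replicate 2 or 3, 12 h replicate 1 or any 24 h library.

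**Figure D4:**
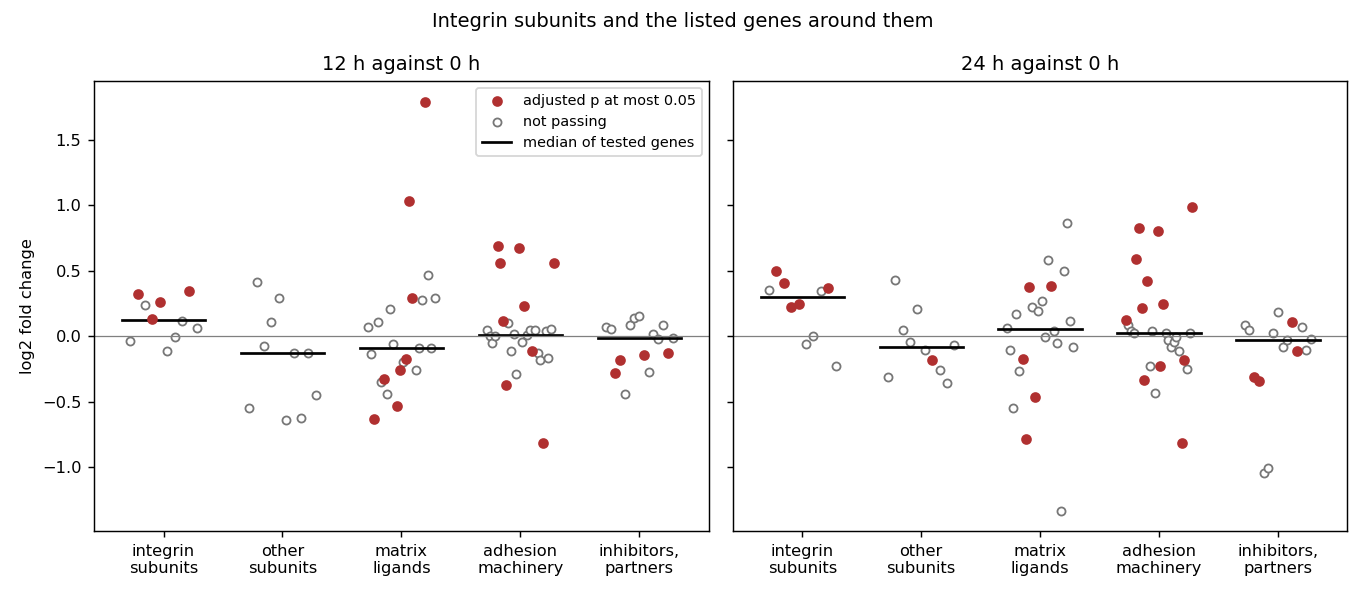
Log2 fold change at 12 h and at 24 h against 0 h, 1 panel each, for the tested genes of the integrin members, the other subunits, the matrix ligands, the adhesion machinery and the inhibitors and partners, with 1 point per gene and filled points for an edgeR adjusted p of at most 0.05, and a line at the median of each list. The integrin members that passed lie on the positive side only, while the ligands and partners lie on both sides.

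Of 27 genes listed for the machinery that couples integrins to actin, 26 were tested, and 6 rose and 3 fell at 12 h, while 8 rose and 4 fell at 24 h, with median log2 fold changes of 0.012 and 0.022. The share that passed was 34.6% at 12 h and 46.2% at 24 h, beside 18.7% and 21.1% of all tested genes. With the 1.5-fold limit added, 3 passed at 12 h (FERMT1 and NEDD9 higher, TNS1 lower) and 5 at 24 h (ZYX, FERMT2, NEDD9 and FERMT1 higher, TNS1 lower), where 2.37% and 3.31% of all tested genes did. TNS1, which encodes the adhesion protein tensin and was named after its values were seen, held 1.65, 1.54 and 2.43 CPM at 0 h, 1.09, 1.02 and 1.07 CPM at 12 h, and 1.15, 1.16 and 0.883 CPM at 24 h. Its log2 fold change was -0.81 at both times (edgeR adjusted p = 0.00553 and 0.00490), and both calls were lost without 0 h replicate 3, at -0.58 (adjusted p = 0.0909 and 0.0898). ZYX, which encodes the focal adhesion protein zyxin, held 49.6, 49.9 and 52.2 CPM at 0 h, 75.3, 75.1 and 73.0 CPM at 12 h, and 101, 106 and 93.1 CPM at 24 h. The 3 times were fully separated. The log2 fold change of ZYX was 0.56 (edgeR adjusted p = 9.19e-13) at 12 h and 0.99 (edgeR adjusted p = 3.87e-20) at 24 h. EPHA1 overlaps ZYX over 82 exonic bases and had 31.7% of its counts.

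FERMT1 and FERMT2 encode kindlins, which switch integrins on by binding the tail of the beta chain, and both rose at both times. The other 2 activators listed, the talin genes TLN1 and TLN2, did not pass. Their log2 fold changes at 12 h were -0.12 and -0.18 (edgeR adjusted p = 0.0816 and 0.179). At 24 h they were -0.0063 and -0.12 (edgeR adjusted p = 0.950 and 0.428). FERMT2 held 16.1, 16.4 and 15.9 CPM at 0 h, 23.9, 22.1 and 25.4 CPM at 12 h, and 28.6, 27.5 and 29.8 CPM at 24 h, again fully separated, with log2 fold changes of 0.56 and 0.82 (edgeR adjusted p = 2.99e-09 and 7.20e-14). FERMT1 held 8.08, 7.92 and 7.59 CPM at 0 h, 13.4, 13.2 and 11.4 CPM at 12 h, and 12.5, 11.7 and 11.3 CPM at 24 h. Both later times lay above 0 h and overlapped each other, with log2 fold changes of 0.69 and 0.59 (edgeR adjusted p = 2.68e-08 and 4.63e-07). NEDD9, a scaffold of focal adhesion signalling, held 12.6, 13.4 and 13.1 CPM at 0 h, all below every later library, with means of 20.8 ± 1.61 CPM at 12 h and 22.8 ± 1.04 CPM at 24 h (SD, n = 3). Its log2 fold changes were 0.68 (edgeR adjusted p = 2.95e-10) and 0.80 (edgeR adjusted p = 2.06e-12). Of the 4 kinases listed, 0 passed at 12 h by edgeR, also 0 at an unadjusted p under 0.05, and only FYN passed at 24 h (log2 fold change 0.42, edgeR adjusted p = 0.00118). PTK2, the focal adhesion kinase, had log2 fold changes of 0.010 and 0.022 and did not pass.

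Among 15 inhibitors and partners of integrins, all tested, 4 fell and none rose at 12 h, and 3 fell and 1 rose at 24 h. That is 26.7% at each time, beside 18.7% and 21.1% of all tested genes. The tetraspanins CD9 and CD82, membrane proteins that gather integrins into patches, both fell. CD9 held 250, 255 and 249 CPM at 0 h, 219, 221 and 223 CPM at 12 h, and 201, 197 and 196 CPM at 24 h, so the 3 times were fully separated. Its log2 fold changes were -0.18 and -0.34 (edgeR adjusted p = 2.29e-05 and 6.24e-11). CD82 went from 13.9 ± 0.568 CPM to 11.4 ± 0.191 and 11.2 ± 0.130 CPM, with log2 fold changes of -0.28 and -0.31 (edgeR adjusted p = 0.00280 and 0.000852). The other 2 tetraspanins listed, CD151 and CD81, had log2 fold changes of 0.084 and 0.044 at 24 h and did not pass.

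Genes of integrin traffic changed little. RAB21, a small GTPase that carries internalised integrins, fell by 0.11 on the log2 scale at 24 h (edgeR adjusted p = 0.0213), a call lost without 0 h replicate 2 or 3 or 24 h replicate 1 or 2 (adjusted p up to 0.0932). RAB11FIP1, which returns them to the surface, was 0.11 higher at 24 h with an edgeR adjusted p of 0.0488, a call lost in 11 of 16 alternative settings, among them those without 0 h replicate 2 or 3 or any 24 h library. The inhibitor ITGB1BP1, which competes for the ITGB1 tail, fell by 0.14 at 12 h (edgeR adjusted p = 0.0459) and was -0.081 at 24 h (edgeR adjusted p = 0.304). The inhibitor SHARPIN fell by 0.13 at 12 h (edgeR adjusted p = 0.0228) and was -0.10 at 24 h (edgeR adjusted p = 0.0726). None of the 3 hemidesmosome partners of ITGB4, PLEC, DST and COL17A1, passed the edgeR test at 12 h (1 at an unadjusted p under 0.05) or at 24 h (2 at an unadjusted p under 0.05).

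The genes whose log2 CPM across the 9 libraries was most like that of ITGA2, the member with the largest rise, were POLR2K (Pearson r = 0.976), SLC4A7 (0.976) and MBLAC2 (0.971), out of 11399 genes compared. The 9 points share the 3 times, so this likeness is a description of the time course. No member fell, so none was taken for the opposite direction.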

How the data were processed

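Total RNA of LNCaP cells was sequenced as mRNA read pairs at 0, 12 and 24 h, with 3 biological replicates per time. The authors trimmed reads with Cutadapt, aligned them to GRCh38.p13 with STAR and deposited whole-number counts per gene from featureCounts, without normalization or pooling. The strand setting is not given in the sources used here, and 14 empty columns were not used. The study's methods mention 1 LNCaP replicate at time 0 left out for quality; its captions give 3 replicates for NRG1 and a varying number for ASPN, the study's other treatment. All 3 libraries at 0 h were kept, and each was left out in turn.

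Groups and replicate numbers came from the sample titles. Genes were kept with filterByExpr (19250 of 37351), scaled by TMM and tested with edgeR 4.0.16 in R 4.3.3, by robust quasi-likelihood over the 9 libraries together without a covariate, with Benjamini-Hochberg adjustment over all tested genes. Self-tests on simulated counts were run on the same code. CPM used TMM-scaled library sizes, and levels between genes used the canonical transcript length of GENCODE. Overlapping genes and near-identical copies were read from GENCODE and by BLAST (at least 95% identity over 150 bases). Alternatives were DESeq2 1.42.0, other scalings and filters, the 6 compared libraries alone, a replicate block, a 1.5-fold limit and leaving out each library. The same alternatives for listed genes, and all exon bases as the length for sums and ratios, were added after seeing the data.

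The members and gene lists were chosen with earlier results of these data known. From each list other than the members, the text names up to 4 genes with an adjusted p of at most 0.05 at 12 or 24 h, a mean log2 CPM of 2 or more and the largest changes at 24 h, and other subunits above 1 CPM. Other genes were named after their values were seen, and single results for some marker genes are not reported here. Intervals cover counting and replicate spread, and reads were counted without molecular identifiers.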

Additional observations from a re-analysis of the deposited data

Results flagged for a closer look

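Between 12 h and 24 h in NRG1, several genes outside the 10 members differed in the edgeR test of the later time against the earlier one. Their change from 0 h was thus not the same at both times. In the lists around the integrin chains, 4 of 22 tested matrix ligands, 4 of 26 machinery genes and 1 of 15 inhibitors and partners passed. The share over all tested genes was 6.08%. LAMA5 was 0.45 higher at 24 h on the log2 scale (adjusted p = 0.00546), ZYX 0.43 higher (adjusted p = 2.53e-09) and FERMT2 0.27 higher (adjusted p = 0.00185). FYN was 0.32 higher (adjusted p = 0.0426), and CD9 had a log2 difference of -0.16 (adjusted p = 0.000906). Of the luminal prostate markers, KLK3, which encodes prostate-specific antigen, had a log2 difference of -0.17 (adjusted p = 0.00105). The differences of LAMA5, ZYX, FERMT2, CD9 and KLK3 passed in all 16 alternatives, and that of FYN was not put through them. None of the 10 integrin members differed in this test.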

How the results depend on the processing

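The rises of ITGA2, ITGA3, ITGA5, ITGA6 and ITGB5 at 24 h, and of ITGA6 and ITGB5 at 12 h, held in all 16 alternatives. Of 472 alternative values of the members, 445 kept their direction and side of the threshold, 7 lost and 7 gained a call, and 13 changed sign. With the 1.5-fold limit, 0 members passed at 12 h and 0 at 24 h. The highest count at 12 h was 6, with all genes that had a count, where ITGA3 at 0.24 and ITGAV at -0.12 were added. Leaving out 1 library gave 3 to 5 members at 12 h, 5 to 6 at 24 h and 0 to 0 between 12 and 24 h. The replicate numbers did not pair the libraries (r of same-numbered deviations -0.122 to 0.147, and 7 of 18 best with their own number). With a replicate block, 5 members passed at 12 h, ITGAV at -0.12 (adjusted p = 0.0299) being the addition, 5 at 24 h and 0 between them, and LAMA5 passed at 24 h at 0.19 (adjusted p = 0.0222).

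The sign of some values that did not pass changed. Leaving out 1 library put the log2 fold change at 12 h at -0.10 to 0.013 for ITGA1, -0.020 to 0.0099 for ITGB1, -0.57 to 0.35 for ITGB8 and -0.0026 to 0.045 for RAB11FIP1. At 24 h the range was -0.0084 to 0.020 for ITGB1, which was -0.0026 with all genes and -0.0034 with at least 10 counts in every library, and -0.20 to 0.11 for ITGA7. Between 12 and 24 h it was -0.037 to 0.021 for ITGA6, which was 0.0015 with no scaling factor, -0.58 to 0.35 for ITGB8, -0.14 to 0.0017 for ITGAE, -0.30 to 0.0010 for ITGA7, -0.015 to 0.11 for LAMA3 and -0.070 to 0.12 for TNS1, which was -0.0036 with all genes. With all exon bases as the length, 0 h levels per kilobase were 42.7 for ITGB1, 8.50 for ITGA6, 6.97 for ITGB5, 6.60 for ITGA5, 4.95 for ITGAV, 1.43 for ITGA2, 0.863 for ITGA3, 0.366 for ITGB4, 0.138 for ITGA1 and 0.0126 for ITGB8. Depth limits ITGB8 and, less so, ITGA1 and ITGB4.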
